A study of Mus musculus with 8 samples.

Results

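Hippo signalling is a kinase cascade that restrains growth. Stk3 and Stk4 (also called Mst2 and Mst1) activate Lats1 and Lats2, which phosphorylate the coactivators Yap1 and Wwtr1 (Taz) and keep them out of the nucleus. Unphosphorylated Yap1 and Wwtr1 enter the nucleus and switch on genes through the DNA-binding factors Tead1 to Tead4. In embryonic stem cells Yap and Tead factors have been linked to self-renewal, and in the early embryo Tead4 and Lats kinases act in the choice between trophectoderm and inner cell mass. These 10 genes (Lats1, Lats2, Stk3, Stk4, Yap1, Wwtr1, Tead1, Tead2, Tead3 and Tead4) were taken by gene symbol from the 49641 gene entries of the expression table. All 10 were present once and all 10 passed the filter on low values, which kept 12786 genes.

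The values come from RNA sequencing of 8 mouse embryonic stem cell libraries, 2 for each of 4 groups. All 8 carry the labels V6.5 line and 129/C57BL/6 strain, and all were grown in serum with LIF. The wild-type group (WT) had a control treatment. The 3 other groups all lack Dgcr8, the partner of Drosha in cutting primary microRNA transcripts, so their cells make no canonical microRNAs: Dgcr8 knockout cells (Dgcr8 KO) with the control treatment, knockout cells that received a mimic of miR-294, and knockout cells that received siRNAs against the splicing regulators Mbnl1 and Mbnl2 (siMbnl1/2). Mimic or siRNA was used at 50 nM and added 16 hours after plating. The comparisons ask which effects of losing microRNAs a single microRNA reverses, and whether lowering Mbnl proteins has a similar effect.

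The libraries were named V65-mock in the WT group and ES1-mock in the Dgcr8 KO group, so a difference between these groups can also hold differences between cell lines, which cannot be told apart from the knockout. Nothing in the labels says that the 2 replicates of a group were separate cultures, so p-values reflect no more than how these libraries vary, which may be technical. The labels allow gelatin or irradiated mouse embryonic fibroblast feeders without saying which was used for each library. All 10 embryonic stem cell markers passed the filter, with summed levels of 5809 to 7631 FPKM (fragments mapped, scaled by transcript length and library size), while 14 fibroblast markers summed to 7.35 to 14.1 FPKM and 11 or 12 of them were under 1 FPKM in each library. Dgcr8 was at 22.9 and 21.9 FPKM in WT and between 6.58 and 8.50 FPKM in the 6 knockout libraries. Mbnl2 was lower after the siRNAs than in Dgcr8 KO (adjusted p = 0.0191, limma), from a mean of 26.6 to 12.8 FPKM. Mbnl1 went from a mean of 8.71 to 6.80 FPKM and did not pass the test (adjusted p = 0.158, limma). FPKM holds no count, but the lowest steps of long single-transcript genes correspond to about 26800000 to 34500000 fragments per library. On that basis Tead3, the lowest of the 10 in mean level outside WT, rested on about 155 to 458 fragments per library if read from its longest transcript.

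The miR-290 family is the main microRNA family of mouse embryonic stem cells, and miR-294 is one of its members. A microRNA pairs with the 3′ untranslated region (UTR) of messenger RNAs chiefly through its seed, bases 2 to 8, given here in capitals. The mimic sequence itself is not in the sources used here, so the mature sequence from RefSeq (GRCm38.p6, chr7:3220691-3220712, plus strand) is shown, with the other 4 mature mouse microRNAs of that table that share its seed.
mmu-miR-294-3p: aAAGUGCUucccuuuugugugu
mmu-miR-291a-3p: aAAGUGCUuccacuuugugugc
mmu-miR-295-3p: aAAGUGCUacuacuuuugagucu
mmu-miR-302b-3p: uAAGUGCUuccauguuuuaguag
mmu-miR-302d-3p: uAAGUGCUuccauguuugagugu

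The longest annotated 3′ UTR of each gene (GENCODE M21, GRCm38) was searched on the transcript strand for AGCACTT, which pairs with the whole seed, for GCACTTA, which pairs with bases 2 to 7 followed by an A, and for AGCACTTA, which holds both and was counted once as the 8-base match. 4 of the 10 genes held a match of 7 or 8 bases. Lats2 held 2, Lats1, Stk4 and Wwtr1 held 1 each, and Stk3, Yap1 and Tead1 to Tead4 held none. The sites are printed with the matched bases in capitals, since they are the matches of 7 or 8 bases found. Matches of only 6 bases (GCACTT) were also present, 1 in Stk3, 3 in Tead1 and 2 in Wwtr1.
Lats2, chr14:57691086-57691093, minus strand: gtacagtatggaaagAGCACTTAttt
Lats2, chr14:57690988-57690994, minus strand: gtgtgttgtatctgatAGCACTTgtc
Lats1, chr10:7714156-7714162, plus strand: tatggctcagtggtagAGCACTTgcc
Stk4, chr2:164151887-164151893, plus strand: ctcatgtctgttagccAGCACTTctg
Wwtr1, chr3:57457022-57457028, minus strand: ccttgctctctctctgAGCACTTcaa

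The Lats2 sites start at bases 195 and 294 of a UTR of 1626 bases, and the first is the only 8-base match among the 10 genes. Of 11503 tested genes with an annotated 3′ UTR, 20.8% held a match of 7 or 8 bases and 3.6% an 8-base match. Longer UTRs hold more: among UTRs of similar length (from 0.8 times the length of that of the gene to the inverse of that ratio), the share with a match was 22.9% for Lats2, 42.9% for Lats1, 44.6% for Stk4 and 41.4% for Wwtr1. The share with an 8-base match among UTRs of about the length of that of Lats2 was 3.26%. Tead1 has the longest UTR of the 10, 8147 bases, and held no match of 7 bases although 68.3% of UTRs of its length did. Some other annotated protein-coding transcripts of Lats1 and Lats2 lack these sites. A match says only that the letters are there, and no match says only that they are not in this UTR.

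**Figure D1:**
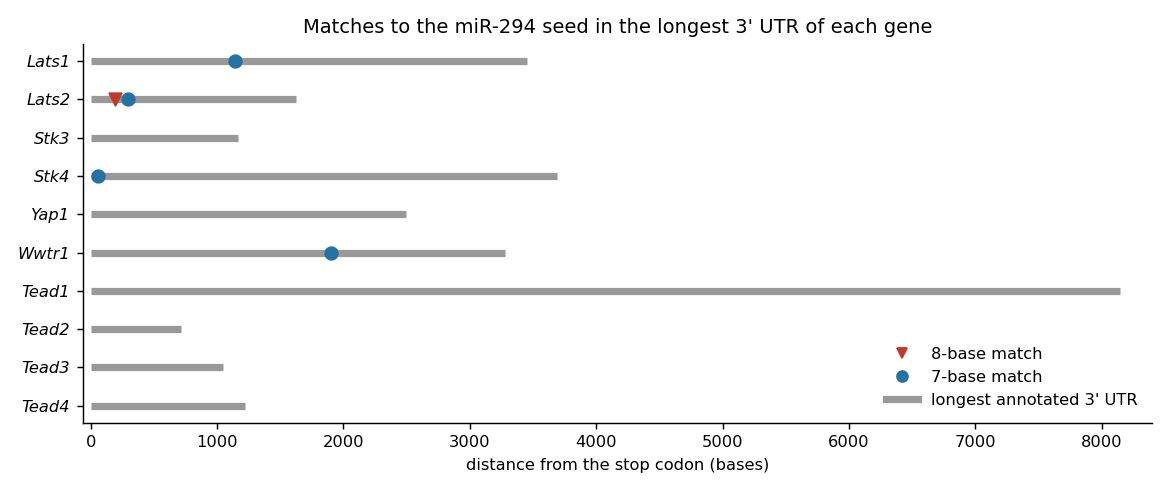
Position of each match to the miR-294 seed along the longest annotated 3′ UTR of the 10 genes, in bases from the stop codon (bar, UTR length; circle, 7-base match; triangle, 8-base match). Lats2 holds an 8-base and a 7-base match near its start, and 6 genes hold none.

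Across the 4 groups most of the 10 genes were high in Dgcr8 KO and siMbnl1/2 libraries and low in WT and miR-294 libraries. Each comparison was tested with limma on log2(FPKM + 1), and a gene was called when its Benjamini-Hochberg adjusted p was under 0.05. In Dgcr8 KO against WT, 7 of 10 were called higher and 0 lower, in a comparison where 59.8% of all genes tested were called, 29.6% higher and 30.1% lower. In miR-294 against Dgcr8 KO, 7 were called lower and 1 higher, with 52.2% of all genes called, 29.2% lower and 22.9% higher. So many genes moved in both comparisons that being called is common, and the direction of the 10 is what differs from the whole: their median log2 change was 0.52 in Dgcr8 KO against WT and -0.63 in miR-294 against Dgcr8 KO, where the medians over all genes were 0.00 and -0.056. The libraries of the compared groups did not overlap for all 10 genes in both comparisons, as for 81.8% and 78.5% of all genes. Both comparisons share the Dgcr8 KO libraries, so a value that is off in those libraries moves both in opposite directions.

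The siRNAs against Mbnl1 and Mbnl2 gave 0 calls among the 10 against Dgcr8 KO with limma, and 1 gene, Lats2, at an unadjusted p under 0.05. Only 1.11% of all genes were called in that comparison, 0.868% higher and 0.242% lower. That count of 142 genes was 15 to 650 in leave-one-out fits, 650 without siMbnl1/2 replicate 2 and 15 without Dgcr8 KO replicate 2, and 4 when only those 4 libraries were fitted. The groups did not overlap for 2 of the 10 (38.7% of all genes). Against the miR-294 libraries, the siMbnl1/2 libraries had 6 of the 10 called higher and 1 lower, with 54% of all genes called, 33% higher and 21% lower. The groups did not overlap for 9 of the 10 (76.7% of all genes). Their median log2 change there was 0.68, with a median over all genes of 0.10 that median-of-ratios scaling moved to 0.0029. The same scaling moved the split over all genes from 4217 higher and 2685 lower to 3477 and 3461, while the split of the 10 was 6 and 1 under both. In miR-294 against WT, 1 of the 10 was called higher and 1 lower, where 26.5% of all genes were called, 11.8% higher and 14.7% lower, and the groups did not overlap for 9 of the 10 (76.7% of all genes). Median-of-ratios scaling moved that split to 3 higher and 1 lower among the 10, and from 1508 higher and 1882 lower to 2019 and 1536 over all genes. The count of 2 among the 10 was 0 or 1 without any 1 of the WT or miR-294 libraries.

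**Figure D2:**
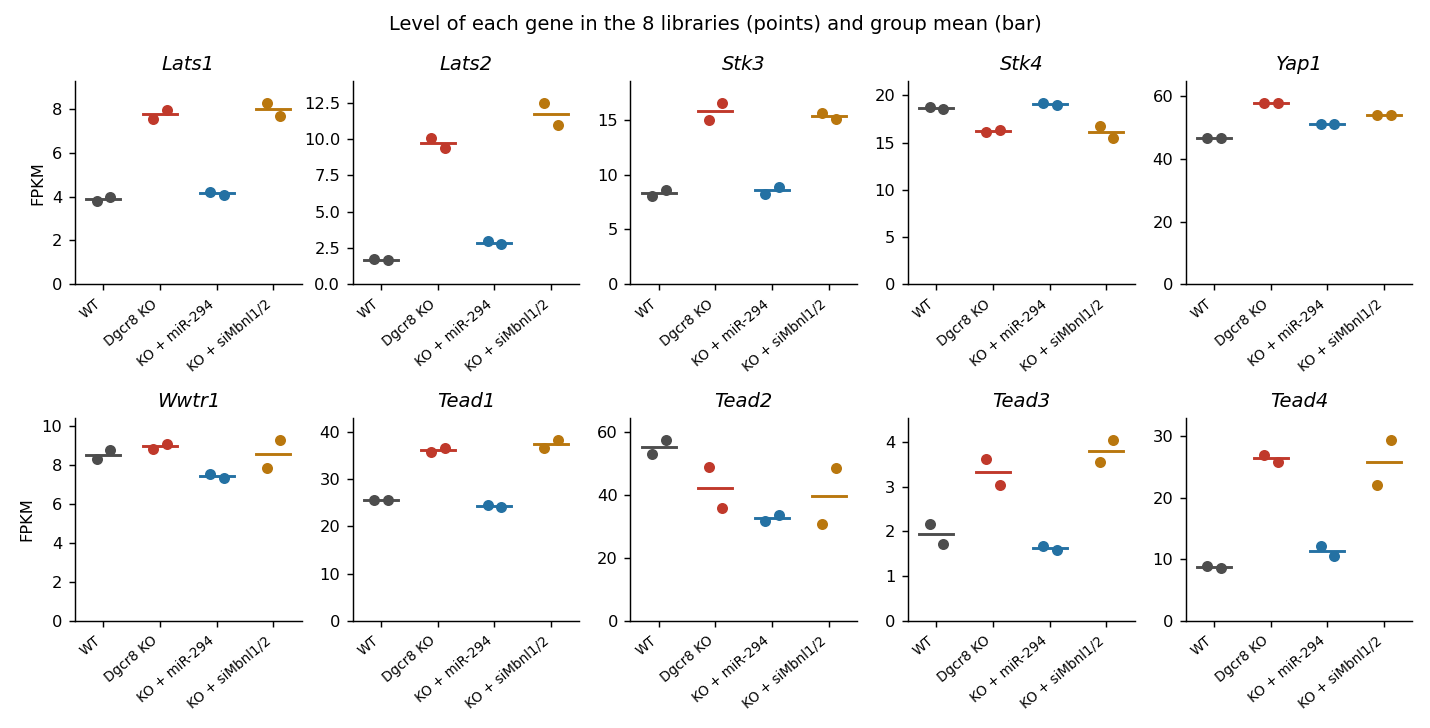
Level of each of the 10 genes in FPKM (linear axis from 0) in the 2 libraries of each group (points), with the group mean (bar). Lats1, Lats2, Stk3, Tead1, Tead3 and Tead4 are high in all 4 Dgcr8 KO and siMbnl1/2 libraries and low in all 4 WT and miR-294 libraries, Stk4 runs the other way, and Tead2 is spread within Dgcr8 KO and siMbnl1/2.

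Lats2, the Lats kinase with the 8-base seed match, had the largest changes of the 10 in Dgcr8 KO against WT and in miR-294 against Dgcr8 KO. It was at 1.74 and 1.65 FPKM in WT, 10.1 and 9.38 in Dgcr8 KO, 2.98 and 2.74 after miR-294, and 12.5 and 10.97 after siMbnl1/2. The groups did not overlap in any pairing, and all miR-294 values lay between WT and Dgcr8 KO. Its mean was 5.74-fold higher in Dgcr8 KO than in WT (log2 change 1.99 ± 0.10 SE, adjusted p = 8.85e-06, limma) and 3.399-fold lower after miR-294 than in Dgcr8 KO (log2 change -1.47 ± 0.10, adjusted p = 6.1e-05). After miR-294 it was still 1.69-fold above WT (log2 change 0.52 ± 0.10, adjusted p = 0.00926), a call that was lost without either WT library or without miR-294 replicate 1 (adjusted p up to 0.0774). Between siMbnl1/2 and Dgcr8 KO the log2 change was 0.25, with a 95% confidence interval of 0.010 to 0.48 and an adjusted p of 0.252.

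The Lats2 entry of the table spans chr14:57642077-57758388 (mm10), whereas GENCODE M21 ends the gene at 57689662 on that side and lists a separate overlapping transcript unit there, Gm49361, whose exons cover 42.4% of the exonic bases of Lats2. The longer span reaches into the neighbouring Xpo4, which encodes a nuclear export receptor. Xpo4 was at 27.6 and 27.3 FPKM in WT, 19.4 and 19.1 in Dgcr8 KO, 28.7 and 28.5 after miR-294, and 16.0 and 16.7 after siMbnl1/2, thus high where Lats2 was low. How fragments from shared exons were divided between these entries is not given in the sources used here, and the part of that division in the Lats2 values was not tested.

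Lats1, the paralog of Lats2 with a single 7-base match, had the same order of group means with smaller changes. It was at 3.797 and 4.003 FPKM in WT, 7.54 and 7.96 in Dgcr8 KO, 4.21 and 4.09 after miR-294, and 8.28 and 7.68 after siMbnl1/2. The Dgcr8 KO and siMbnl1/2 libraries overlapped, and all 4 were above the WT and miR-294 libraries. The mean was 1.99-fold higher in Dgcr8 KO than in WT (log2 change 0.84 ± 0.09, adjusted p = 1.63e-04, limma) and 1.87-fold lower after miR-294 (log2 change -0.76 ± 0.09, adjusted p = 3.94e-04). Against WT the miR-294 libraries differed by a log2 change of 0.072 (95% interval -0.14 to 0.28).

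The upstream kinases Stk3 and Stk4 moved in opposite directions. Stk3 was at 8.05 and 8.56 FPKM in WT, 15.0 and 16.5 in Dgcr8 KO, 8.27 and 8.85 after miR-294, and 15.6 and 15.0 after siMbnl1/2. Its WT and miR-294 libraries overlapped, as did its Dgcr8 KO and siMbnl1/2 libraries, and the pairs of groups stood apart from each other. It rose in Dgcr8 KO against WT (log2 change 0.85 ± 0.08, adjusted p = 1.24e-04, limma) and fell after miR-294 (log2 change -0.81 ± 0.08, adjusted p = 2.64e-04), with a 6-base but no 7-base seed match in its UTR. Stk4 holds a 7-base match 56 bases after its stop codon and was at 18.8 and 18.5 FPKM in WT, 16.1 and 16.4 in Dgcr8 KO, 19.2 and 18.9 after miR-294, and 16.7 and 15.5 after siMbnl1/2. All 4 WT and miR-294 libraries were above the 4 others. Stk4 was 1.18-fold higher after miR-294 than in Dgcr8 KO (log2 change 0.22 ± 0.07, adjusted p = 0.0332, limma), a call lost under 9 of 17 alternative settings, among them the fit on these 4 libraries alone. In Dgcr8 KO against WT its log2 change was -0.19 ± 0.07 (adjusted p = 0.0519).

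The coactivators changed less than the kinases that inhibit them. Yap1 was at 46.7 FPKM in both WT libraries, 57.8 and 58.0 in Dgcr8 KO, 51.1 in both miR-294 libraries, and 54.0 and 54.1 after siMbnl1/2. No groups overlapped, and the order from low to high was WT, miR-294, siMbnl1/2, Dgcr8 KO. It was 1.24-fold higher in Dgcr8 KO than in WT (log2 change 0.30 ± 0.06, adjusted p = 0.00257, limma) and 1.13-fold lower after miR-294 than in Dgcr8 KO (log2 change -0.18 ± 0.06, adjusted p = 0.0322). The second of these calls was lost under 9 of 17 alternative settings, and median-of-ratios scaling reduced the change to -0.12. For siMbnl1/2 against Dgcr8 KO the log2 change was -0.097 (95% interval -0.23 to 0.036, adjusted p = 0.429).

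Wwtr1, the Taz coactivator, was called in none of the 5 comparisons with limma, although its UTR holds a 7-base match. It was at 8.33 and 8.76 FPKM in WT, 8.85 and 9.10 in Dgcr8 KO, 7.56 and 7.35 after miR-294, and 7.84 and 9.31 after siMbnl1/2. The miR-294 libraries were the lowest 2 of the 8. Their log2 change against Dgcr8 KO was -0.24 (95% interval -0.46 to -0.012, unadjusted p = 0.0413, adjusted p = 0.0729, limma). For Dgcr8 KO against WT it was 0.064 (95% interval -0.16 to 0.29).

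Among the Tead factors, Tead4 had the largest changes in the same comparisons. Tead4 was at 8.93 and 8.55 FPKM in WT, 27.0 and 25.8 in Dgcr8 KO, 12.2 and 10.5 after miR-294, and 22.1 and 29.5 after siMbnl1/2. The siMbnl1/2 libraries straddled the Dgcr8 KO libraries, and the miR-294 libraries lay just above WT. Its mean was 3.03-fold higher in Dgcr8 KO than in WT (log2 change 1.49 ± 0.13, adjusted p = 7.59e-05, limma) and 2.32-fold lower after miR-294 than in Dgcr8 KO (log2 change -1.15 ± 0.13, adjusted p = 3.97e-04). Against WT the miR-294 libraries had a log2 change of 0.34 (95% interval 0.030 to 0.66, adjusted p = 0.0992).

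Tead1 and Tead3 shared a pattern, Tead1 at a high level and Tead3 at the lowest level of the family. Tead1 was at 25.5 FPKM in both WT libraries, 35.6 and 36.6 in Dgcr8 KO, 24.5 and 24.2 after miR-294, and 36.5 and 38.3 after siMbnl1/2. It was 1.42-fold higher in Dgcr8 KO than in WT (log2 change 0.49 ± 0.06, adjusted p = 4.43e-04, limma) and 1.48-fold lower after miR-294 than in Dgcr8 KO (log2 change -0.55 ± 0.06, adjusted p = 3.86e-04). Tead3 was at 2.16 and 1.72 FPKM in WT, 3.63 and 3.03 in Dgcr8 KO, 1.68 and 1.59 after miR-294, and 3.54 and 4.06 after siMbnl1/2. For both genes the 4 Dgcr8 KO and siMbnl1/2 libraries were above the 4 others. Tead3 was 1.72-fold higher in Dgcr8 KO than in WT (log2 change 0.56 ± 0.13, adjusted p = 0.0065, limma) and 2.04-fold lower after miR-294 than in Dgcr8 KO (log2 change -0.71 ± 0.13, adjusted p = 0.00262). The first Tead3 call was lost without WT replicate 2 (adjusted p = 0.0565). None of Tead1, Tead3 and Tead4 held a 7-base seed match in its longest UTR, and Tead1 held 3 of 6 bases.

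Tead2, the most abundant Tead factor in WT cells, followed another pattern. It was at 53.1 and 57.7 FPKM in WT, 48.8 and 35.9 in Dgcr8 KO, 31.7 and 33.7 after miR-294, and 30.9 and 48.5 after siMbnl1/2. WT was above all 6 knockout libraries, and the Dgcr8 KO and siMbnl1/2 groups each held a high and a low library. The log2 change was -0.39 in Dgcr8 KO against WT (95% interval -0.89 to 0.099, adjusted p = 0.144, limma) and -0.35 in miR-294 against Dgcr8 KO (95% interval -0.84 to 0.14, adjusted p = 0.202), neither of which passed the test. Tead2 was lower after miR-294 than in WT (log2 change -0.74 ± 0.21, adjusted p = 0.0377), a call lost under 7 of 17 alternative settings, including leaving out any library of either group. Cd37, which encodes a leukocyte tetraspanin and meets the end of Tead2 on the opposite strand over 13 exonic bases, was at 6.17 and 6.02 FPKM in WT, 5.45 and 4.09 in Dgcr8 KO, 4.41 and 4.15 after miR-294, and 3.84 and 5.46 after siMbnl1/2. The summed level of 9 trophoblast markers was also higher in siMbnl1/2 replicate 2 (125.7 FPKM) than in replicate 1 (92.2). In Dgcr8 KO it was higher in replicate 1 (92.1) than in replicate 2 (79.7). The sum of the primitive endoderm markers shifted the same way, mostly through Col4a1. The markers summed to 18.7 and 24.6 FPKM in siMbnl1/2 replicates 1 and 2, and to 20.2 and 17.2 in Dgcr8 KO. Col4a1 alone was at 14.5 and 20.4 FPKM in siMbnl1/2, and at 15.9 and 13.6 in Dgcr8 KO. Other markers of that list, all under 1 FPKM there, went against the sum. Sox17, Sox7, Foxa2, Dab2 and Pdgfra were lower in siMbnl1/2 replicate 2, and Gata6, Sox17 and Sox7 were higher in Dgcr8 KO replicate 2. The summed embryonic stem cell markers were nearly level in siMbnl1/2 (7631 and 7628 FPKM). In Dgcr8 KO they were higher in replicate 1 (6816 FPKM) than in replicate 2 (6286), as the other 2 lists were. Of the trophoblast markers, Tfap2c (22.6 and 37.6) and Krt18 (27.1 and 38.8) rose most in FPKM between these siMbnl1/2 replicates. Eomes, Cdx2 and Elf5 fell. The part of Cd37 or of these markers in the spread of Tead2 was not tested.

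**Figure D3:**
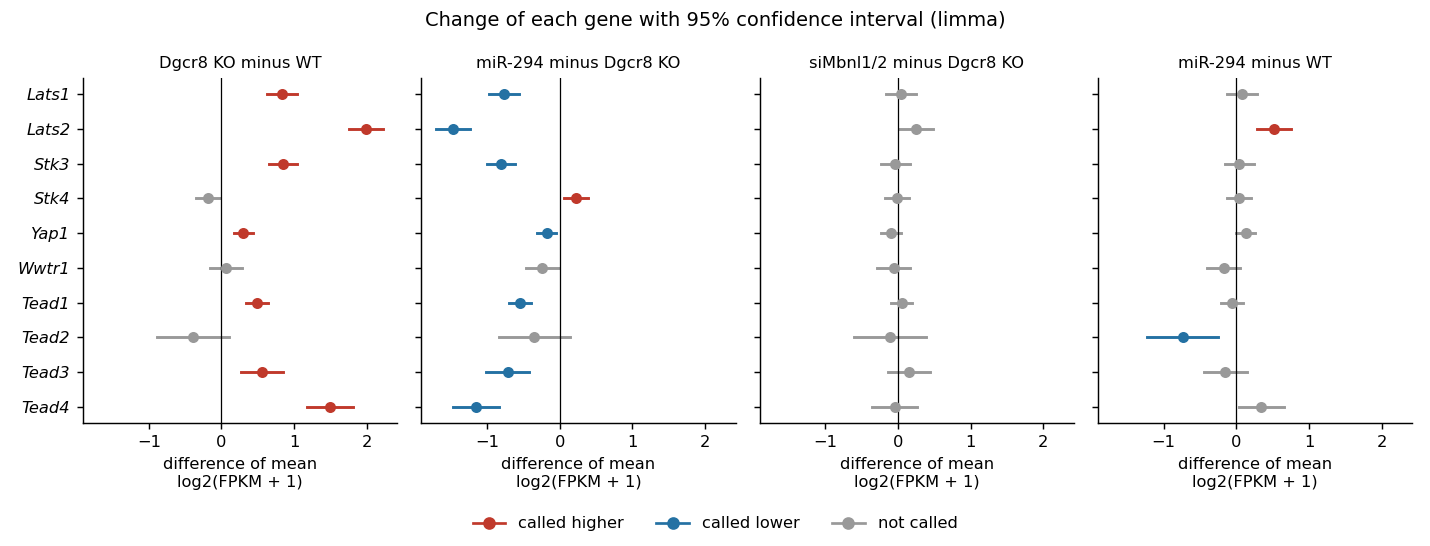
Log2 change of each of the 10 genes with its 95% confidence interval in 4 comparisons (difference of group means of log2(FPKM + 1), limma, red called higher, blue called lower, grey not called). Lats2 and Tead4 lie farthest from 0 in the first 2 panels, at 1.99 and 1.49 for Dgcr8 KO minus WT and -1.47 and -1.15 for miR-294 minus Dgcr8 KO, and no gene is called for siMbnl1/2 minus Dgcr8 KO.

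The direct comparison of both treatments called 6 of the 10 genes higher after siMbnl1/2 and 1 lower. Of all genes tested, 54% were called there, 33% higher and 21% lower. In siMbnl1/2 against miR-294 the log2 change was 1.72 for Lats2, 1.11 for Tead4, 0.86 for Tead3, 0.80 for Lats1, 0.77 for Stk3 and 0.60 for Tead1, with adjusted p from 3.6e-05 to 0.00105 in limma. Stk4 was 1.18-fold lower after siMbnl1/2 than after miR-294 (log2 change -0.23, adjusted p = 0.0268), a call lost under 6 of 17 alternative settings. The siRNAs lowered Mbnl2 to a mean of 12.8 FPKM, and the miR-294 libraries had Mbnl2 at 13.8 FPKM. Mbnl1 was higher after the siRNAs (6.80 FPKM) than after miR-294 (5.04 FPKM, adjusted p = 0.0165, limma). For the 10 genes the 95% intervals of siMbnl1/2 against Dgcr8 KO stayed within 0.48 on the log2 scale, except for Tead2, whose interval reached -0.60.

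Because FPKM is per length, paralogs can be set side by side, and their balance shifted between groups. Lats2 made up 31.4% and 29.2% of the summed FPKM of both Lats kinases in WT, 57.2% and 54.1% in Dgcr8 KO, 41.5% and 40.1% after miR-294, and 60.1% and 58.8% after siMbnl1/2. By these values Lats1 was the more abundant Lats transcript in WT and miR-294 libraries, and Lats2 in the 4 others. The ranking depends on the longer Lats2 entry described above and on how fragments shared with overlapping genes were divided, which is not known. The summed Lats level was 5.53 and 5.65 FPKM in WT, 17.6 and 17.3 in Dgcr8 KO, 7.19 and 6.83 after miR-294, and 20.8 and 18.6 after siMbnl1/2. No model was fitted to these shares and sums, and with 2 libraries a group an exact permutation test cannot go below p = 0.333, so they are given as a description.

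The other families shifted less in their sums. Stk3 made up 30.8% ± 1.13 (SD, n = 2) of both upstream kinases in WT, 49.2% ± 1.42 in Dgcr8 KO, 30.1% and 31.8% after miR-294 and 48.7% ± 0.73 after siMbnl1/2, while the summed level stayed between 26.8 and 32.9 FPKM in all 8 libraries. Wwtr1 made up 12.6% to 15.8% of both coactivators across the 8 libraries, so Yap1 was the dominant transcript in every group. Tead4 went from 9.56% ± 0.58 of the 4 Tead factors in WT to 24.5% ± 1.43 in Dgcr8 KO, 16.2% ± 1.68 after miR-294 and 24.1% ± 0.49 after siMbnl1/2. Tead2 made up 60.5% ± 1.79 in WT and 38.9% ± 4.95, 46.7% ± 2.07 and 36.7% ± 5.06 in the same 3 groups. The summed Tead level was lowest after miR-294, at 70.1 ± 0.09 FPKM (SD, n = 2), below WT at 89.6 and 93.4 FPKM, and the 4 Dgcr8 KO and siMbnl1/2 libraries ranged from 93.0 to 120.4 FPKM.

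**Figure D4:**
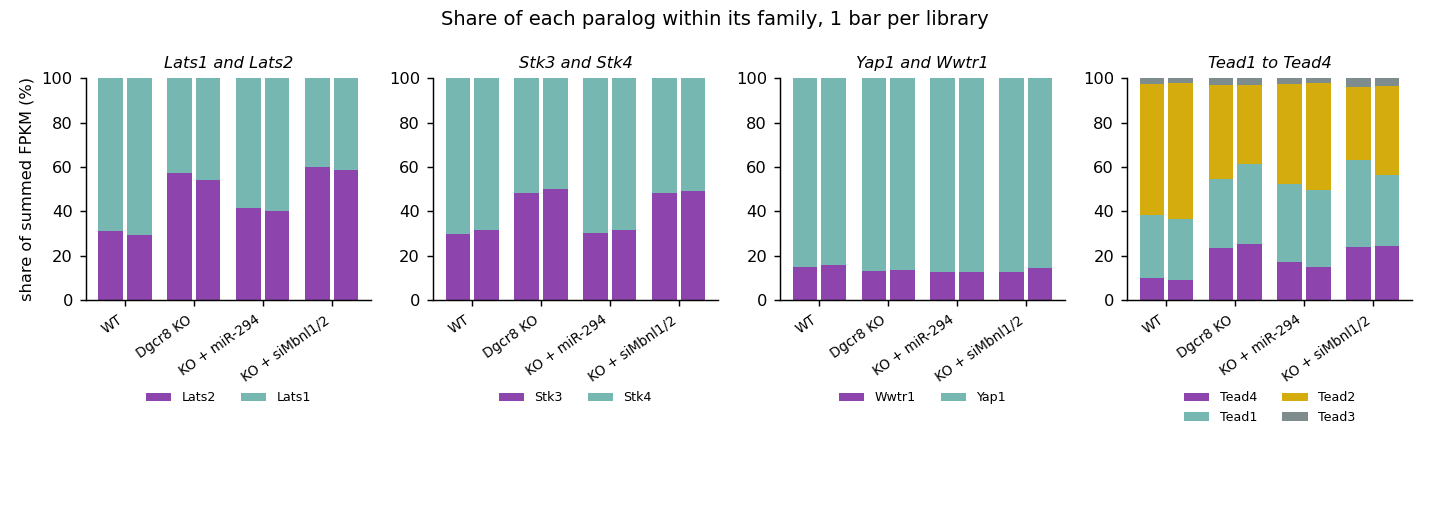
Share of each paralog in the summed FPKM of its family, in percent, with 1 bar per library and 2 bars per group. Lats2 goes from 29.2% to 31.4% in WT to 54.1% to 57.2% in Dgcr8 KO, Stk3 from about 30.8% to 49.2%, and Tead4 from 9.56% to 24.5%, with miR-294 libraries closer to WT for the kinases.

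The order of the 10 genes by level differed between groups accordingly. In WT the order was Tead2, Yap1, Tead1, Stk4, then Tead4, Wwtr1 and Stk3 with overlapping values near 8.5 FPKM, then Lats1, then Tead3 and Lats2, which overlapped. In Dgcr8 KO it was Yap1, then Tead2 and Tead1, whose libraries overlapped, then Tead4, then Stk4 and Stk3, which overlapped, then Lats2, Wwtr1, Lats1 and Tead3. The siMbnl1/2 libraries had that same order, with Wwtr1 and Lats1 overlapping as well. After miR-294 the order was Yap1, Tead2, Tead1, Stk4, Tead4, Stk3, Wwtr1, Lats1, Lats2 and Tead3, with no neighbours overlapping.

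Over the 8 libraries, levels of the genes that moved together were closely correlated, as a description over points that share libraries and groups. Pearson's r of log2(FPKM + 1) was 0.99 between Lats1 and Stk3 and 0.99 between Lats1 and Lats2, and -0.98 between Stk4 and Tead1. Tead2 had r between -0.38 and 0.65 with the 9 others. The tested genes with the highest r to Lats2 were Asb8, Tpm1 and Ehbp1, those to Tead4 were Rnf135, Numa1 and Pxk, and those to Yap1 were Hoxa10, Ssx2ip and Foxo1. For Lats1 they were Galc, Lcor and Gbp4, for Stk3 Map3k2, Rock2 and Dennd6a, for Stk4 Rrp15, Cct6a and Tbp, for Tead1 Spg20, Neo1 and Zc2hc1a, for Tead2 Dennd4b, Asrgl1 and Echs1, and for Tead3 Sgms1, Ap3b2 and Cryz. Such likeness was common: of 12785 other tested genes, 1136 had r of at least 0.95 with Lats2 and 1159 with Tead4, and only 15 with Tead2.

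The wider pathway was read from 3 lists that hold 80 further Hippo genes, 66 of which passed the filter. In Dgcr8 KO against WT 36 of the 66 rose and 10 fell (69.7% called, against 59.8% of all genes), with a median log2 change of 0.36. In miR-294 against Dgcr8 KO 7 rose and 35 fell (63.6% called, against 52.2%), with a median of -0.36. In siMbnl1/2 against Dgcr8 KO 1 rose, Igfbp3, and 0 fell with limma, and 13 were at an unadjusted p under 0.05. Without siMbnl1/2 replicate 2, 5 were called in that comparison, and without any 1 of the WT, Dgcr8 KO or miR-294 libraries, 0. In siMbnl1/2 against miR-294 40 rose and 5 fell (68.2% called, against 54%, of which 33% higher and 21% lower), and 37 and 6 under median-of-ratios scaling. In miR-294 against WT 16 rose and 11 fell (40.9% called, against 26.5%). That last count of 27 was 14 or 15 without any 1 of the WT or miR-294 libraries, where the share over all genes fell as well, to between 9.71% and 10.7%.

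Among 37 upstream regulators, 32 of them tested, 19 rose and 3 fell in Dgcr8 KO against WT, and 1 rose and 16 fell after miR-294 against Dgcr8 KO. These are 68.8% and 53.1% of the list, against 59.8% and 52.2% of all genes, so the second share is near that of all genes. The largest rises in the knockout were Mink1 (log2 change 1.34), a kinase of the Map4k group that can act on Lats, Stk38 (1.29), a kinase related to Lats, and Frmd6 (1.21), a FERM-domain protein of the cell cortex. Mink1 was at 15.1 and 14.5 FPKM in WT, 42.5 and 35.9 in Dgcr8 KO, 21.2 and 20.1 after miR-294, and 36.9 and 45.3 after siMbnl1/2. The largest changes after miR-294 were in Map4k5 (log2 change -0.95), another Map4k kinase, Mink1 (-0.89) and Frmd6 (-0.88). Against WT, the miR-294 libraries were higher in Nf2 (log2 change 0.87), the Merlin scaffold that recruits Lats to the membrane, and in Stk38 (0.72), and lower in Wwc2 (-0.83), a Kibra relative. Nf2 was at 47.4 and 48.7 FPKM in WT and between 86.9 and 116.2 FPKM in all 6 knockout libraries, so its level after miR-294 was near that of Dgcr8 KO. Wwc2 and Map4k5 led siMbnl1/2 against miR-294, at log2 changes of 1.06 and 1.24, with Frmd6 at 0.98.

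Of 18 partners and antagonists of Yap and Tead, 16 tested, 9 rose and 3 fell in Dgcr8 KO against WT, and 1 rose and 8 fell after miR-294. These are 75% and 56.2% of the list, the second again near the 52.2% of all genes. Amot, which encodes angiomotin, a junction protein that holds Yap in the cytoplasm, had the largest change, a log2 change of -2.44. It was at 5.76 and 5.56 FPKM in WT and between 0.21 and 0.73 FPKM in all 6 knockout libraries. Amot thus reached the filter only through WT, and its lower direction was tied to the filter. After miR-294 Amot was still below WT by a log2 change of -2.01. Its relative Amotl1 went the other way, with a log2 change of 0.51 in Dgcr8 KO against WT and -0.65 after miR-294. The Tead cofactor Vgll3 rose in Dgcr8 KO against WT (log2 change 1.63) and was above WT after miR-294 (0.99) and above miR-294 after siMbnl1/2 (1.03). Patj, a polarity scaffold, rose by 1.30 on the log2 scale in Dgcr8 KO and fell by 1.41 after miR-294, from 10.8 and 10.97 FPKM to 3.61 and 3.35 FPKM. Ptpn14, a phosphatase that binds Yap, fell by 0.92 after miR-294 and was higher by 1.24 after siMbnl1/2 than after miR-294, where Patj was higher by 1.46. Csnk1e, a casein kinase that acts in Yap degradation, was lower after miR-294 than in WT (log2 change -0.96).

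Of 25 genes often used as Yap and Tead targets, 18 tested, 8 rose and 4 fell in Dgcr8 KO against WT, and 5 rose and 11 fell after miR-294 against Dgcr8 KO. These are 66.7% and 88.9% of the list, against 59.8% and 52.2% of all genes. The largest rises in the knockout were Dock5 (log2 change 1.64), a guanine exchange factor of Rac, Myof (1.42), a membrane repair protein, and Lhfp (1.15). Myof was at 7.29 and 7.52 FPKM in WT, 22.0 and 21.03 in Dgcr8 KO, 8.78 and 8.43 after miR-294, and 24.3 and 25.9 after siMbnl1/2. The largest falls after miR-294 were Myof (-1.23), Arhgef17 (-1.08) and Nuak2 (-0.97), a kinase. The classical targets Cyr61 and Ctgf had different patterns. Cyr61, named here after its values were seen, was at 30.0 and 31.0 FPKM in WT and 29.2 and 27.4 in Dgcr8 KO, was not called between them, and fell after miR-294 to 19.0 and 18.1 FPKM. Ctgf, also named after its values were seen, fell in Dgcr8 KO against WT (log2 change -0.62, adjusted p = 0.00825, limma) and rose after miR-294 (0.43, adjusted p = 0.0427). Dock5 (0.84) and Gata3 (0.84), a trophectoderm factor that is also on the trophoblast list, were higher after miR-294 than in WT, and Dlc1 (-0.81) was lower.

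Igfbp3, which encodes an insulin-like growth factor binding protein, was at 11.97 and 12.06 FPKM in Dgcr8 KO and 24.5 and 19.5 after siMbnl1/2 (log2 change 0.82 ± 0.11, adjusted p = 0.0255, limma). It was at 6.94 and 7.30 FPKM in WT and 7.27 and 7.15 after miR-294, so that siMbnl1/2 was above miR-294 by 1.48, with Myof above by 1.44 and Arhgef17 by 1.15. The call against Dgcr8 KO was lost when all genes were tested without a filter, when the groups were given their own spread, and when only those 4 libraries were fitted. It was also lost with the replicate block, and whenever a library of the WT, Dgcr8 KO or miR-294 groups was left out.

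**Figure D5:**
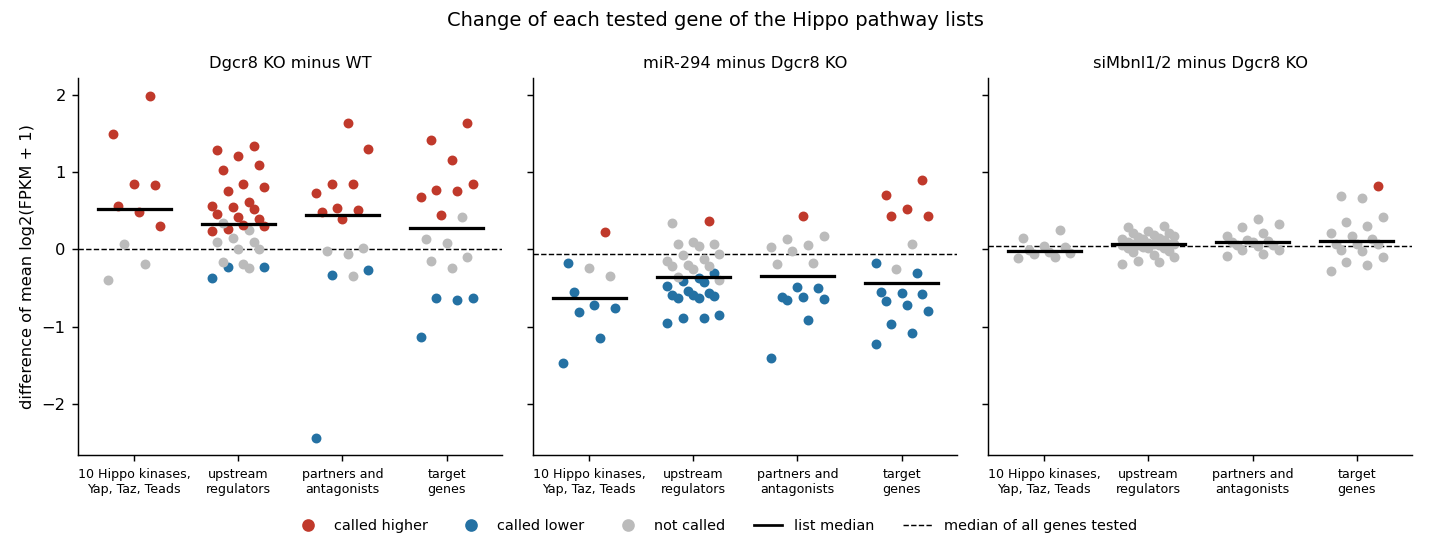
Log2 change of every tested gene of the 10 and of the 3 further Hippo lists (difference of means of log2(FPKM + 1), points) in 3 comparisons, with the list median (thick line) and the median of all genes tested (dashed line). List medians lie at 0.27 to 0.52 for Dgcr8 KO minus WT, at -0.34 to -0.63 for miR-294 minus Dgcr8 KO, and near 0 for siMbnl1/2 minus Dgcr8 KO.

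Markers of other cell types and of stem cells differed between groups beside these changes. The 8 primitive endoderm markers summed to 146.9 and 148.2 FPKM in WT and 16.1 to 24.6 FPKM in the 6 knockout libraries, where Col4a1, a basement membrane collagen, made up 11.9 to 20.4 FPKM. All 7 tested markers of that list were lower in Dgcr8 KO than in WT and in miR-294 than in WT (100%, against 59.8% and 26.5% of all genes called). Gata6, Sox17, Sox7, Dab2 and Pdgfra reached the filter only through WT. Their Dgcr8 KO means were 0.12 to 0.32 FPKM, so their lower direction was tied to the filter. After miR-294 against Dgcr8 KO 4 of the 7 were called (57.1%, against 52.2% of all genes). The endoderm factors Gata6 (log2 change 0.61) and Sox7 (0.97) and the adaptor Dab2 (0.41) rose, and Gata4 (-0.97) fell. Gata6 was at 10.2 and 10.4 FPKM in WT, 0.13 and 0.18 in Dgcr8 KO, and 0.74 and 0.78 after miR-294, so it stayed under 1 FPKM in the knockout libraries.

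Of 9 trophoblast markers, 7 tested, 2 rose and 3 fell in Dgcr8 KO against WT, and 3 rose and 1 fell after miR-294. These are 71.4% and 57.1% of the tested markers, against 59.8% and 52.2% of all genes, so the second share is near that of all genes. Tfap2c, a transcription factor of trophoblast and germ cells, was at 8.68 and 8.32 FPKM in WT, 29.3 and 26.9 in Dgcr8 KO, 9.04 and 9.05 after miR-294, and 22.6 and 37.6 after siMbnl1/2. It was 3.31-fold higher in Dgcr8 KO than in WT and 3.11-fold lower after miR-294 than in Dgcr8 KO, and so high and low in the same groups as Tead4 and Lats2. Gata3 also rose in Dgcr8 KO against WT (log2 change 0.77), while Krt18 (-1.16), Krt8 (-0.89) and Eomes (-0.48) fell. Eomes and Hand1, other trophoblast factors, rose after miR-294 by log2 changes of 0.86 and 1.10, and the keratin Krt18 by 0.53. Cdx2 and Elf5, defining trophoblast factors, were under 1 FPKM in every library.

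Of 10 embryonic stem cell markers, 4 rose and 3 fell in Dgcr8 KO against WT, and 4 rose and 3 fell after miR-294. These are 70% of the list in both comparisons, against 59.8% and 52.2% of all genes. The pluripotency factors Nanog (log2 changes 0.87 and -0.79) and Sox2 (1.03 and -0.50) rose in the knockout and fell after miR-294. Pou5f1, which encodes Oct4, (-0.49 and 0.53), Utf1 (-0.89 and 0.76) and Zfp42 (-0.51 and 0.66) went the other way. Of 14 fibroblast markers 3 were tested: Twist1 rose in the knockout and fell after miR-294 (0.66 and -0.52), Thy1 rose after miR-294 (0.86), and Pdgfra fell in the knockout (-2.52). Pdgfra reached the filter only through WT. In siMbnl1/2 against Dgcr8 KO limma called 0 markers in each of these 4 lists, and at an unadjusted p under 0.05 were 4 stem cell, 2 trophoblast, 1 endoderm and 0 fibroblast markers. In bulk RNA, fewer cells of a type and less RNA per cell cannot be told apart, and the part of these markers' cell types or states in the changes of the 10 genes was not tested.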

How the data were processed

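The authors deposited 1 table of FPKM values per gene for the 8 libraries. Reads were aligned with STAR 2.5.0 and quantified with Cufflinks 2.2.1 on mm10, per the submitters' processing notes, and libraries followed a dUTP protocol, per the labels' protocols. The annotation release and the use of strand are not given in the sources used here. The labels name polyA RNA as the molecule and the design text total RNA.

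Columns were matched to samples by the names in the labels. Genes with a mean of at least 1 FPKM over the 8 libraries (12786 of 49641 entries) were fitted with limma 3.58.1 (R 4.3.3) on log2(FPKM + 1) with 4 group means and a moderated variance with trend and robust settings. Tests were two-sided, with Benjamini-Hochberg adjustment over all genes tested in each of 5 comparisons. Errors of log2 changes are standard errors, intervals cover 95%, and fold changes are ratios of mean FPKM. A log2 change on this scale understates changes of low genes, such as Tead3, Lats2, Amot and Gata6. For Amot a 24.9-fold lower mean in Dgcr8 KO than in WT is a log2 change of -2.44. Each gene was recomputed under 17 alternative settings. The script was tested on simulated data.

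Named genes were the 10 genes, Dgcr8, Mbnl1 and Mbnl2, the 3 most changed called genes without overlap between groups in each Hippo list and comparison, and the 3 tested genes most correlated with each called gene. Xpo4, Cd37, Cyr61, Ctgf and the named cell type markers lie outside that rule and were named after their values were seen. The genes and lists were chosen with earlier results of these data known, so they are not independent evidence. Annotation (GENCODE M21) and microRNA sequences (RefSeq) were used for UTRs and positions: 43792 entries carry the same identifier version as M21.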

Additional observations from a re-analysis of the deposited data

How the results depend on the processing

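Over 17 alternative settings, the number of the 10 genes called stayed within 6 to 9 in Dgcr8 KO against WT, in miR-294 against Dgcr8 KO and in siMbnl1/2 against miR-294, and at 0 in siMbnl1/2 against Dgcr8 KO. In miR-294 against WT it was 2, and 1 without a filter, under quantile normalization or with the replicate block, 4 under median-of-ratios scaling or with only the 4 libraries of the comparison, 5 with weights by group spread, and 0 to 3 in leave-one-out fits. For the 66 further Hippo genes, siMbnl1/2 against Dgcr8 KO gave 1 call, 0 without a filter, with group weights, with only those 4 libraries or with the replicate block, 2 under median-of-ratios scaling, and 0 to 5 in leave-one-out fits. miR-294 against WT gave 27, and 14 to 29 in leave-one-out fits, all 4 counts under 16 being those without a WT or miR-294 library. Seed matches fell to 0 in the transcripts of Lats1 and Lats2 that lack the site.

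Same-numbered replicates deviated together weakly or not at all (r from -0.049 to 0.19 between groups, highest between WT and Dgcr8 KO). Such a correlation cannot show how cultures were set up, so whether the numbers are a pairing stays unknown. With the replicate block the calls of Stk4 and Yap1 in miR-294 against Dgcr8 KO and of Tead2 in miR-294 against WT were lost.

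Small changes that were not called turned sign. In Dgcr8 KO against WT, Wwtr1 was at -0.087 under quantile normalization. In siMbnl1/2 against Dgcr8 KO, Lats1 was at -0.012 under median-of-ratios scaling and -0.023 under quantile normalization, and Tead1 was at -0.0043 under median-of-ratios scaling. Leave-one-out fits of that comparison ranged from -0.011 to 0.085 for Lats1, -0.11 to 0.026 for Stk3, -0.064 to 0.042 for Stk4, -0.17 to 0.048 for Wwtr1, -0.43 to 0.21 for Tead2 and -0.25 to 0.15 for Tead4. In siMbnl1/2 against miR-294, Yap1 was at -0.031 under median-of-ratios scaling, Wwtr1 at -0.057 under quantile normalization, and Tead2 at -0.081 to 0.56 in leave-one-out fits. In miR-294 against WT, Stk3 ranged from -0.0052 to 0.083 in leave-one-out fits, and Tead1 was at 0.00056 under median-of-ratios scaling. The cause of these shifts was not tested. Raising the filter to a mean of 5 FPKM leaves Tead3 untested. With 2 libraries a group and FPKM in place of counts, the 95% intervals above set what could be seen.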
